A study of Homo sapiens with 4 samples.

Results

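The genes described here are the 10 listed neighbours of the t(4;14) breakpoint region on chromosome 4p16.3: NSD2, FGFR3, LETM1, TACC3, SLBP, TMEM129, FAM53A, NELFA, NAT8L and C4orf48. They were found by symbol in the deposited gene table, 10 of the 62069 genes counted in each library, and each symbol matched 1 Ensembl gene. The rule that lists them uses map position and no measured value, but the genes were chosen with earlier results of these data known. RNA was sequenced from KMS11, an established myeloma cell line, in 2 libraries from cells given control shRNA and 2 from cells given an NSD2 shRNA that the labels call shM2. Both groups received lentivirus with polybrene at 10 µg/mL, and cells were collected for RNA after 96 h, of which 72 h followed a change to normal medium. The second group is labelled with a single hairpin name, and both groups are 1 cell line. Nothing in the labels says that libraries sharing a group were grown as separate cultures. Each p-value thus reflects the spread between these 4 samples alone, in part pooled over genes, and that spread may be technical.

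In t(4;14) myeloma, chromosome 4 and the immunoglobulin heavy chain locus on chromosome 14 exchange ends. The break lies near the start of NSD2, so that NSD2 comes under an immunoglobulin enhancer on one derivative chromosome and FGFR3 under another on the other. NSD2 encodes a methyltransferase that places methyl groups on lysine 36 of histone H3, and FGFR3 encodes a receptor tyrosine kinase for fibroblast growth factors. The break position in KMS11 is not given in the sources used here.

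On the GRCh37 coordinates of the deposited table, the 10 genes spanned chromosome 4 from 1619642 to 2070816, a stretch of 451 kb. From the telomere inward the order was FAM53A, SLBP, TMEM129, TACC3, FGFR3, LETM1, NSD2, NELFA, C4orf48 and NAT8L. NSD2 (ENSG00000109685) ran from 1873151 to 1983934 on the plus strand, and FGFR3 (ENSG00000068078) from 1795034 to 1810599 on the plus strand. LETM1 lay between them, from 1813206 to 1857974 on the minus strand, 2606 bases from FGFR3 and 15176 bases from NSD2. TMEM129 and TACC3 stood head to head with 141 bases between them, and NELFA and C4orf48 stood head to head with 58 bases between them. Fragments were counted without regard to strand, so reads from overlapping genes on opposite strands cannot be told apart. No exonic base of NSD2 was shared with another gene, and the unnamed gene ENSG00000183504 on the opposite strand within it held 0 to 5 fragments. The only overlapping gene with more than 5 fragments in any library was ENSG00000218422. It shares 939 exonic bases with TACC3 on the same strand and held 206 to 329 fragments.

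Promoter sequence is shown for NSD2 and FGFR3, the genes the translocation is known for, and for NAT8L, which had the largest difference between the groups among the 10. The sequences are the 250 bases before the RefSeq start, 5′ to 3′ on the plus strand of GRCh38.p14, a build other than that of the counts, at chr4:1871143-1871392 for NSD2, chr4:1793043-1793292 for FGFR3 and chr4:2059077-2059326 for NAT8L. RefSeq windows were matched for 7 of the 10 genes. Capitals mark every match, on either strand, to 5 motifs: the GC box GGGCGG, the CCAAT box CCAAT, the TATA box TATAAA, the E2F motif TTTCCCGC and the E box CACGTG.
NSD2: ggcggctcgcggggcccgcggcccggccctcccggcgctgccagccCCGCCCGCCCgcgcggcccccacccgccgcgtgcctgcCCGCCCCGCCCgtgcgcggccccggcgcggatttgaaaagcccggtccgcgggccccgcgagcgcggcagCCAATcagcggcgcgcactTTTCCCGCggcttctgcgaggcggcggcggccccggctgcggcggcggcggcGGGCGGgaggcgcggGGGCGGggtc
FGFR3: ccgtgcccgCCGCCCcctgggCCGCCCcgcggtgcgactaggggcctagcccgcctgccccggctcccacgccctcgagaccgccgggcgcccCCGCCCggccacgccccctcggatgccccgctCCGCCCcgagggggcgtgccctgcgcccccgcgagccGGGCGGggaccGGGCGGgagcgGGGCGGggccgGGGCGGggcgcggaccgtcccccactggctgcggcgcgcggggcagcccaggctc
NAT8L: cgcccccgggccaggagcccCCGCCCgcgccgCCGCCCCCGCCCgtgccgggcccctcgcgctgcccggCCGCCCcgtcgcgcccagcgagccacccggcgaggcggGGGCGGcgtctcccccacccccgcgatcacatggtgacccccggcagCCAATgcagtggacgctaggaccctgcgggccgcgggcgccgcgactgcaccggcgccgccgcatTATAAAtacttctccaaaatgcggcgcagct
The NSD2 window held 6 GC boxes, 1 CCAAT box and 1 E2F motif, the FGFR3 window held 8 GC boxes, and the NAT8L window held 5 GC boxes, 1 CCAAT box and 1 TATA box. G and C made up 86.0% of the bases for NSD2, 86.8% for FGFR3 and 78.4% for NAT8L. Matches that touch run together in capitals. Among all 35116 RefSeq windows of this length, 42.6% held a GC box, 32% a CCAAT box, 10.7% a TATA box, 1.39% the E2F motif and 6.34% the E box. A match is a description of letters and not of binding.

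Depth was 46728940 to 50417758 counted fragments in the control libraries and 48334736 to 55059566 in the libraries labelled NSD2 knockdown. Of 12 plasma cell markers, 10 averaged at least 1 CPM (the count of a gene scaled to a common library size after TMM scaling), with a summed level of 9404 to 9433 CPM in control and 8635 to 9497 CPM in knockdown libraries. CD38 and CD27 averaged below 1 CPM over the 4 libraries. JCHAIN alone made up 5031 to 5575 CPM of that sum. In the edgeR test given below, at an adjusted p below 0.05, 2 of the 12 markers fell, against 4.19% of all tested genes. SLAMF7 went from 237 and 272 to 110 and 129 CPM (adjusted p = 0.000952). CD38 went from 1.54 and 0.700 to 0.290 and 0.0369 CPM (adjusted p = 0.0284). The summed level was 48.3 to 54.8 against 46.8 to 49.1 CPM for 6 B cell markers, 5.92 to 6.41 against 4.82 to 5.31 CPM for 7 T and NK cell markers with CD3D and KLRD1 at 0, and 0.138 to 0.191 against 0.124 to 0.129 CPM for 7 myeloid markers with S100A8 at 0. For 6 matched stromal markers, with CDH5 at 0, it was 1.56 to 1.89 against 1.18 to 1.4 CPM. For 7 epithelial markers, with KRT5 and KRT14 at 0, it was 53.8 to 66.3 against 32.9 to 34.4 CPM. In the same edgeR test all 3 that were tested fell, against 4.19% of all tested genes. Their adjusted p was 0.00859 for EPCAM, 0.00588 for KRT18 and 0.0248 for CDH1. The part of these marker differences in the results below was not tested. In bulk RNA, fewer cells of a type and less RNA per cell cannot be told apart.

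Levels of the 10 genes differed widely in KMS11. FGFR3 was far above its neighbours: per kb of exonic length it averaged 761 CPM per kb over the 4 libraries, which placed it 27th from the top of 13037 tested protein-coding genes, whose median was 5.31 CPM per kb. Next came NSD2 at 59.0 CPM per kb, above 94.6% of tested protein-coding genes, and SLBP at 56.9 CPM per kb. The libraries of FGFR3 ranged from 699.9 to 821 CPM per kb and those of NSD2 from 46.5 to 74.4, so the ranges were apart, with means 12.9 times different. NSD2 and SLBP overlapped in range. The exonic length of NSD2 in the deposited table is 19776 bases, the union of all annotated exons, and 57 tested protein-coding genes are longer. Its level per kb depends on that length.

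Below SLBP stood C4orf48 at 35.0, TACC3 at 29.8 and TMEM129 at 28.4 CPM per kb, whose ranges overlapped from each to the next. LETM1 at 6.81 CPM per kb and NELFA at 5.07 lay close to the median of tested protein-coding genes. LETM1, although it lies between FGFR3 and NSD2, was above 56.2% of those genes only. NAT8L at 0.803 and FAM53A at 0.296 CPM per kb were the lowest, and their ranges overlapped. Apart from FGFR3 and NSD2, the ranges did not overlap between SLBP and C4orf48, TMEM129 and LETM1, LETM1 and NELFA, or NELFA and NAT8L.

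**Figure D1:**
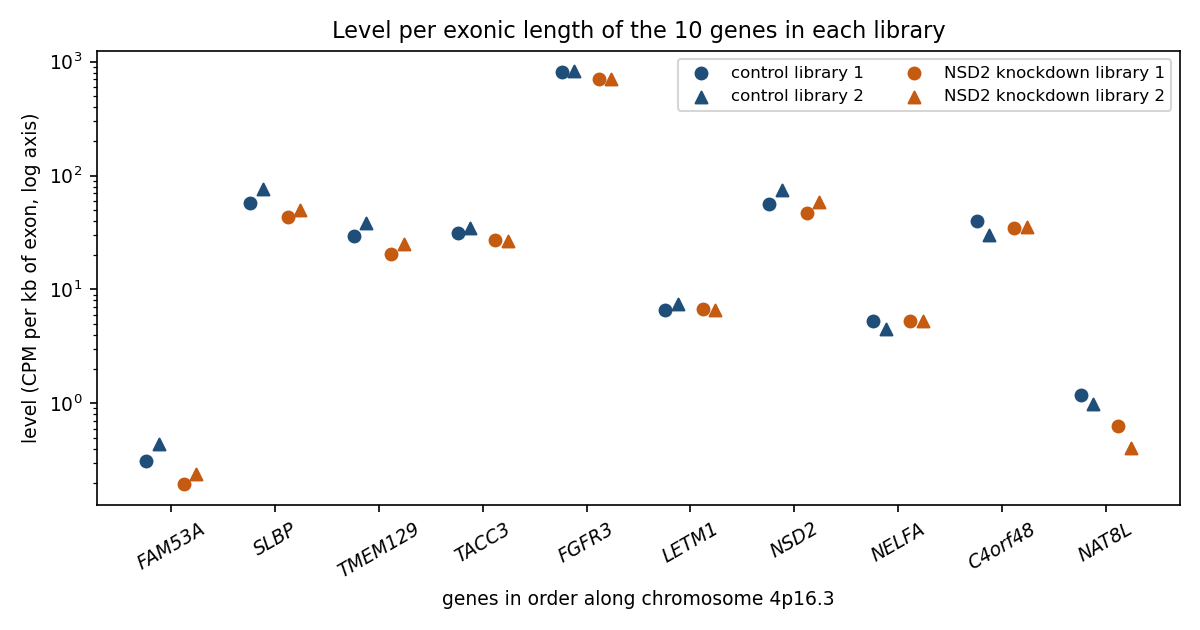
Level of each gene in CPM per kb of exonic length on a log axis, in order along 4p16.3, with 1 point per library (circles for library 1 and triangles for library 2 of a group, control in blue and knockdown in orange). FGFR3 stands above all others at 699.9 to 821 CPM per kb, and FAM53A and NAT8L are the lowest.

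FGFR3 alone took 0.396% and 0.401% of all fragments in control libraries 1 and 2, and 0.341% and 0.334% in knockdown libraries 1 and 2. By raw count it was the 10th gene in 3 libraries and the 12th in knockdown library 2. NSD2 took 0.112% and 0.148% of fragments in the control libraries and 0.0920% and 0.114% in the knockdown libraries. The 10 genes together took 0.557% and 0.605% against 0.473% and 0.489%. The ratio of NSD2 to FGFR3 in CPM was 0.284 and 0.371 in control libraries and 0.270 and 0.342 in knockdown libraries, so number 2 was the higher in each group and the groups overlapped.

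Setting the libraries labelled NSD2 knockdown against the controls asks how the transcripts of these neighbours differ when NSD2 is targeted. All 10 genes passed the filter on low counts. At an adjusted p below 0.05 in edgeR's quasi-likelihood test with Benjamini-Hochberg adjustment over 17172 genes, NAT8L and TMEM129 fell, 2 of 10, and none of the 10 rose. Over all tested genes 4.19% fell and 1.74% rose. At an unadjusted p below 0.05, 5 of the 10 genes were lower and 0 higher, against 13.1% and 9.46% of all tested genes. DESeq2 called 3 of the 10 lower and 0 higher (4.73% and 2.31% of all genes), and limma-voom called 2 lower and 0 higher (4.17% and 1.69%). The log2 fold change was below 0 for 8 of the 10 genes, with a median of -0.31, against a median of 0.00 over all tested genes. Both knockdown libraries were below both control libraries for 6 of the 10 genes (FAM53A, SLBP, TMEM129, TACC3, FGFR3 and NAT8L) and above for 0, where 26.2% of all tested genes were below and 27% above in that sense. The calls depended on the setting: 1 of 10 fell with library-size scaling (4% of all tested genes), with a filter of 1 CPM (4.22%) or with robust empirical Bayes (4.07%), and 5 fell with no filter (4.71%). When 1 library was left out in turn, 6 fell in the absence of control library 1 (7.52% of all tested genes) and 1 in the absence of control library 2 (5.18%). For the knockdown libraries it was 1 in the absence of number 1 (4.95%) and 3 in the absence of number 2 (3.63%).

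**Figure D2:**
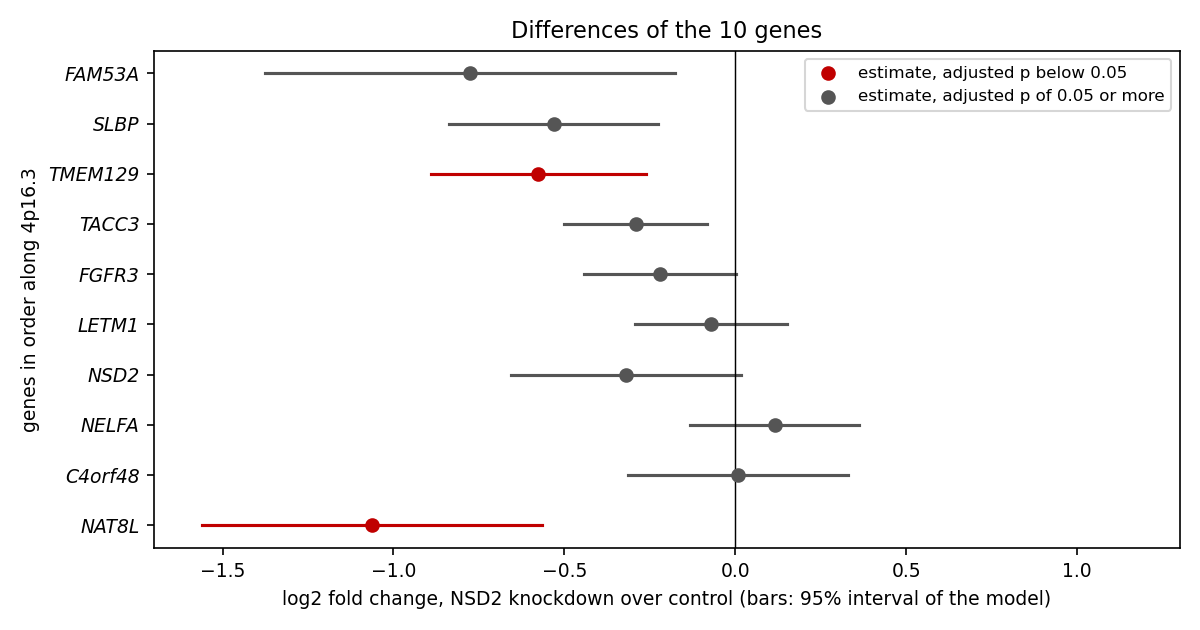
Log2 fold change of each gene, libraries labelled NSD2 knockdown over control, with the 95% interval of the edgeR model, in order along 4p16.3. NAT8L at -1.06 and TMEM129 at -0.58 passed the test, and the interval of FAM53A is the widest.

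NSD2, the gene the shRNA targets, did not pass the test. Its raw counts were 56649 and 69384 fragments in control libraries 1 and 2, and 44456 and 62721 in knockdown libraries 1 and 2. In CPM these were 1121 and 1471 against 919 and 1156. Knockdown library 2 thus lay above control library 1, and the groups overlapped. Library 2 was above library 1 in both groups, by a log2 ratio of 0.39 in control and 0.33 in knockdown. At equal numbers knockdown was below control, at a log2 ratio of -0.29 for number 1 and -0.35 for number 2. Equal numbers are not said to mark pairs. The log2 fold change was -0.32 with a standard error of 0.15 and a 95% interval of -0.66 to 0.02, with an adjusted p of 0.244. With added terms for GC content and exonic length the log2 fold change was -0.06 (adjusted p = 0.809). Leaving out control library 1 gave -0.50 (adjusted p = 0.0196), and leaving out knockdown library 2 gave -0.50 (adjusted p = 0.0268). Leaving out control library 2 gave -0.12 (adjusted p = 0.731), and leaving out knockdown library 1 gave -0.16 (adjusted p = 0.632). With no filter on low counts NSD2 passed at -0.32 (adjusted p = 0.0173).

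**Figure D3:**
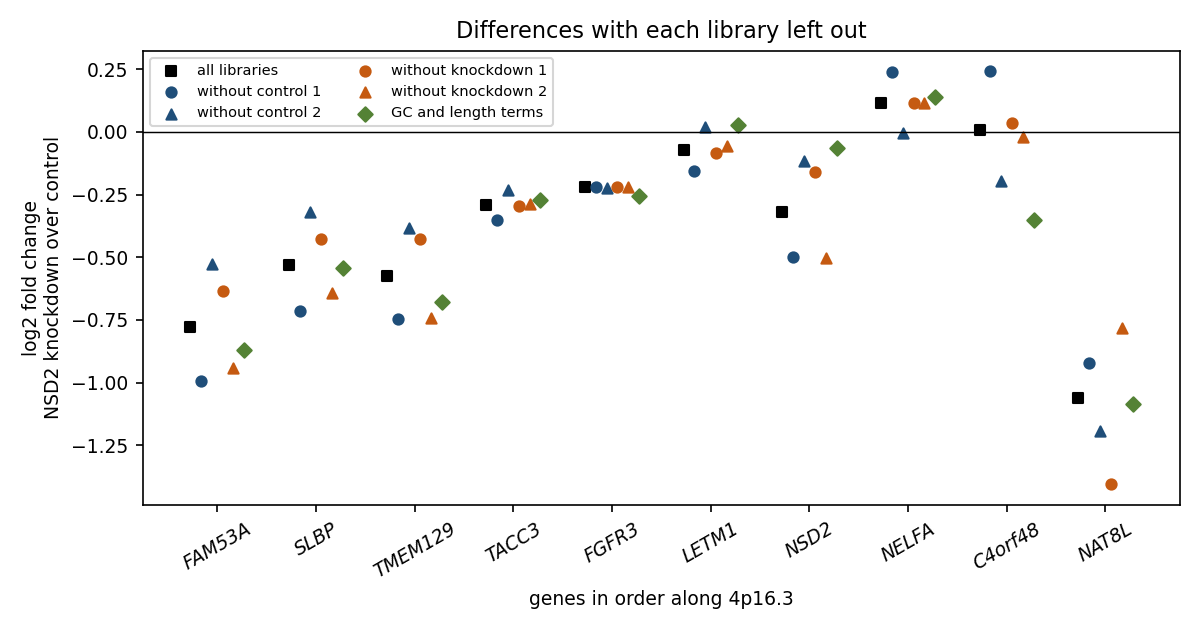
Log2 fold change of each of the 10 genes, knockdown over control, with all 4 libraries (squares), with each library left out (circles and triangles) and with the GC content and length terms (diamonds). With a library left out NSD2 spans -0.50 to -0.12, whereas FGFR3 stays at -0.22.

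The relatives of NSD2 were not called. NSD1 was at 85.8 ± 14.2 CPM (SD, n = 2) in control and 80.0 ± 7.87 CPM (SD, n = 2) in knockdown libraries, with a log2 fold change of -0.10 and an interval of -0.38 to 0.18. NSD3, which shares part of its span with DDHD2, had a log2 fold change of -0.09 with an interval of -0.37 to 0.19. Per kb of exonic length NSD1 stood at 5.60 and NSD3 at 6.12 CPM per kb, against 59.0 for NSD2. Among 19 enzymes and binding proteins of histone H3 lysine 36 methylation, NSD1 and NSD3 included, 0 rose and 1 fell. Over all tested genes 1.74% rose and 4.19% fell, and the median log2 fold change of the list was 0.00. The one that fell was PHF19, a Polycomb accessory protein that binds the methylated lysine, from 309 ± 14.4 to 221 ± 12.3 CPM (SD, n = 2 each), with a log2 fold change of -0.48 and an adjusted p of 0.0186. That call was lost without knockdown library 2 (adjusted p = 0.0926). No list gene rose with DESeq2 or limma-voom either, and 1 was higher at an unadjusted p below 0.05 (9.46% of all tested genes). Of the 3 other genes of the study's title, PTP4A3, the phosphatase also called PRL3, fell by 0.73 on the log2 scale, with an adjusted p of 0.00887. Of the others, CCND1 had -0.52 and just missed the threshold (adjusted p = 0.0543), and SMARCA2 had 0.00 (adjusted p = 0.985). DESeq2 called 2 of the 3 lower, PTP4A3 and CCND1 (4.73% of all tested genes). With limma-voom 1 was called lower, PTP4A3 (4.17%).

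FGFR3 was steady within each group and lower in the knockdown libraries, but did not pass the test. The control libraries gave 3948 and 3969 CPM and the knockdown libraries 3411 and 3383 CPM. The groups did not overlap, and the spread within a group was small: 14.8 CPM SD in control and 19.7 CPM SD in knockdown libraries, each with n = 2. The mean differed by -14.2% from control to knockdown. The log2 fold change was -0.22 with a standard error of 0.0992, an interval of -0.44 to 0.0012 and an adjusted p of 0.224. In edgeR each gene's variance is drawn toward that of other genes. This standard error thus does not rest on the spread of FGFR3 alone. Its log2 fold change was -0.22 in each of the 4 fits that left out 1 library.

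The other FGF receptors were much lower per kb. FGFR4 stood at 4.93, FGFR2 at 3.65 and FGFR1 at 0.572 CPM per kb, against 761 for FGFR3. FGFR4 rose, from 17.1 and 21.1 CPM in control libraries to 27.0 and 30.03 CPM in knockdown libraries, with a log2 fold change of 0.58 and an adjusted p of 0.0279. FGFR1 (log2 fold change 0.01, interval -0.35 to 0.38) and FGFR2 (log2 fold change 0.05, interval -0.18 to 0.27) were not called. Of 18 tested receptors, adaptors and enzymes close to the receptor, 2 rose and 0 fell (1.74% and 4.19% of all tested genes), with a median log2 fold change of -0.04. The second was STAT5A, a transcription factor that receptor kinases activate, from 2.20 ± 0.413 to 4.00 ± 0.335 CPM (SD, n = 2 each), with an adjusted p of 0.0376. Both calls were lost without knockdown library 2, with an adjusted p of 0.0774 for FGFR4 and 0.119 for STAT5A, and that of STAT5A also without control library 2 (0.0814). With the GC content and length terms FGFR4 had an adjusted p of 0.0501. In this list 2 genes were higher and 1 lower at an unadjusted p below 0.05 (9.46% and 13.1% of all tested genes). DESeq2 and limma-voom each called 2 higher and 0 lower.

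Of 17 tested feedback inhibitors and immediate targets of FGF receptor and MAPK signalling, 3 fell and 0 rose, where 4.19% of all tested genes fell and 1.74% rose. The log2 fold change was below 0 for 14 of them, and the median was -0.21. PHLDA1, an early response gene, went from 5.93 ± 0.0165 to 2.79 ± 0.2 CPM (SD, n = 2 each), with a log2 fold change of -1.09 and an adjusted p of 0.0061. ETV4, an ETS transcription factor induced by FGF signalling, had -0.83 (adjusted p = 0.0231), and SPRY4, a Sprouty inhibitor of the pathway, had -0.75 (adjusted p = 0.0413). SPRY4 lost its call with library-size scaling (adjusted p = 0.0546), with a filter of 1 CPM (adjusted p = 0.0525) and with the GC content and length terms (adjusted p = 0.0586). Without knockdown library 2 the adjusted p was 0.215 for SPRY4 and 0.0515 for ETV4, which overlaps DHX8 in span. At an unadjusted p below 0.05, 6 genes of this list were lower and 1 higher (13.1% and 9.46% of all tested genes). DESeq2 and limma-voom each called 3 lower, against 4.73% and 4.17% of all tested genes, and 0 higher.

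On the telomeric side of FGFR3, 4 genes were lower in both knockdown libraries than in both controls, as were 26.2% of all tested genes. TMEM129 (ENSG00000168936, 1717679 to 1723085, minus strand), which encodes an E3 ubiquitin ligase of the endoplasmic reticulum, fell from 102 and 132 CPM in control libraries to 70.3 and 86.6 CPM in knockdown libraries. Its log2 fold change was -0.58 with a standard error of 0.14, an interval of -0.89 to -0.26 and an adjusted p of 0.0416. This call was close to the threshold. It was lost when control library 2 (-0.39, adjusted p = 0.0509) or knockdown library 1 (-0.43, adjusted p = 0.0715) was left out. It was also lost with library-size scaling (adjusted p = 0.0522), a filter of 1 CPM (adjusted p = 0.0606) and robust empirical Bayes (adjusted p = 0.0521). Of 12 dislocation machinery genes of the endoplasmic reticulum that TMEM129 works with, 0 rose and 0 fell (1.74% and 4.19% of all tested genes). The median log2 fold change was 0.11. At an unadjusted p below 0.05, 2 of the 12 were higher and 1 lower (9.46% and 13.1% of all tested genes). DESeq2 and limma-voom called 0.

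SLBP (ENSG00000163950, 1694527 to 1714282, minus strand), which encodes the protein that binds the stem loop of histone messenger RNA, was at 117 and 155 CPM in control against 87.5 and 101 CPM in knockdown libraries. The groups did not overlap, but the adjusted p of 0.0522 missed the threshold, with a log2 fold change of -0.53 and an interval of -0.84 to -0.23. With DESeq2 it passed at -0.53 (adjusted p = 0.00671). It also passed without control library 1 and without knockdown library 2. Of 13 SLBP partners in the processing and decay of histone messenger RNA, 0 rose and 0 fell (1.74% and 4.19% of all tested genes). The median log2 fold change was 0.00, and the number called was also 0 at an unadjusted p below 0.05, with DESeq2 and with limma-voom.

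TACC3 (ENSG00000013810, 1723227 to 1746898, plus strand), which encodes a protein of the mitotic spindle, gave 147 and 161 CPM in control against 126 and 125 CPM in knockdown libraries. The groups did not overlap, and the log2 fold change of -0.29 (interval -0.50 to -0.08) had an adjusted p of 0.105. It passed when control library 1 was left out (-0.35, adjusted p = 0.0401). Its relative TACC1 had -0.14 (adjusted p = 0.423). TACC2, another relative, fell from 3.98 ± 0.456 to 1.46 ± 0.243 CPM (SD, n = 2 each), with a log2 fold change of -1.45 and an adjusted p of 0.00517. It was the only one of 10 tested TACC relatives and spindle partners that passed, where 4.19% of all tested genes fell and 1.74% rose. The median of the list was -0.06.

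FAM53A (ENSG00000174137, 1619642 to 1686029, minus strand), the outermost of the 10, was near the lower end of detection. Its counts were 67 and 87 fragments in control libraries and 40 and 55 in knockdown libraries. In CPM these were 1.33 and 1.85 against 0.827 and 1.01, and the groups did not overlap. Its log2 fold change was -0.78, the interval of -1.38 to -0.18 was the widest of the 10 genes, and the adjusted p was 0.125. It passed when control library 1 was left out (-0.99, adjusted p = 0.0394) and with no filter on low counts (adjusted p = 0.0406). The relatives FAM53B and FAM53C, both tested, were not called, with log2 fold changes from 0.00 to 0.29.

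LETM1, NELFA and C4orf48 showed no difference that could be told from the spread between libraries. LETM1 (ENSG00000168924), which encodes an ion exchange protein of the mitochondrial inner membrane, was at 53.4 and 60.7 CPM in control against 55.1 and 53.6 CPM in knockdown libraries. Both knockdown libraries lay between the controls, and the log2 fold change was -0.07 with an interval of -0.29 to 0.15 (adjusted p = 0.723). Of 10 relatives and mitochondrial ion transport genes, 0 rose and 0 fell (1.74% and 4.19% of all tested genes), with a median of -0.02. The number called was also 0 at an unadjusted p below 0.05, with DESeq2 and with limma-voom.

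NELFA (ENSG00000185049, 1984441 to 2043630, minus strand) encodes a subunit of negative elongation factor, which holds RNA polymerase II in pause. Its levels were 31.2 and 26.6 CPM in control against 31.4 and 31.2 CPM in knockdown libraries, and control library 2 alone stood lower. This gave a log2 fold change of 0.11 with an interval of -0.13 to 0.36 (adjusted p = 0.589). The other subunits gave 0.13 for NELFB, 0.15 for NELFCD and 0.06 for NELFE, with adjusted p-values of 0.458, 0.380 and 0.763. In the list of 11 pausing factors 0 rose and 0 fell (1.74% and 4.19% of all tested genes), and the median was 0.06. At an unadjusted p below 0.05, 1 of them was lower (13.1% of all tested genes), and DESeq2 and limma-voom called 0. C4orf48 (ENSG00000243449, 2043689 to 2045697, plus strand), which encodes a small secreted peptide, was at 22.8 and 17.0 CPM in control against 19.7 and 20.3 CPM in knockdown libraries, and both knockdown libraries lay between the controls. Its log2 fold change was 0.01 with an interval of -0.31 to 0.33 (adjusted p = 0.985). With the GC content and length terms this became -0.35 (adjusted p = 0.112), a turn of direction.

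NAT8L (ENSG00000185818, 2061239 to 2070816, plus strand), the innermost of the 10, showed the largest difference. It encodes the enzyme that makes N-acetylaspartate. Its counts were 351 and 273 fragments in control libraries and 180 and 130 in knockdown libraries, or 6.94 and 5.79 against 3.72 and 2.40 CPM. The groups did not overlap, and the mean changed by -52.0% from control to knockdown. The log2 fold change was -1.06 with a standard error of 0.222, an interval of -1.56 to -0.57 and an adjusted p of 0.0228. The call was lost without knockdown library 2 (-0.78, adjusted p = 0.0542). In the list of N-acetylaspartate metabolism, 5 of 9 genes were tested and 1 fell (4.19% of all tested genes), with a median of -0.24. It was RIMKLA, which joins glutamate to N-acetylaspartate, at 30 and 34 fragments in control libraries and 7 and 13 in knockdown libraries, with a log2 fold change of -1.74 and an adjusted p of 0.0272. That call did not hold with DESeq2 (adjusted p = 0.121), without control library 2 (adjusted p = 0.0594) or when knockdown library 1 was left out (adjusted p = 0.0987).

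Along the chromosome, the log2 fold changes on the telomeric side went from -0.78 at FAM53A through -0.53 at SLBP, -0.58 at TMEM129, -0.29 at TACC3 and -0.22 at FGFR3 to -0.07 at LETM1. Neighbouring intervals in this series overlapped. Past NSD2, NELFA and C4orf48 were near 0, and NAT8L, 15541 bases beyond C4orf48, was at -1.06. Beyond NAT8L came POLN at -0.71 (interval -1.41 to -0.01), HAUS3 at -0.25 (-0.48 to -0.01) and MXD4 at 0.27 (0.06 to 0.47), none called. Within 1000 kb of the NSD2 start there were 29 tested protein-coding genes, of which 19 were not among the 10. Among these 19, 1 rose and 0 fell (1.74% and 4.19% of all tested genes), and DESeq2 and limma-voom gave the same counts. At an unadjusted p below 0.05, 3 were higher and 3 lower (9.46% and 13.1% of all tested genes). The median log2 fold change was 0.06, with levels between 0.0877 and 21.5 CPM per kb. In a broader list of 31 genes of distal 4p16.3 on both sides, 29 were tested, with a median of 0.11. Of the 29, 2 rose and 0 fell (1.74% and 4.19% of all tested genes). The 2 that rose were IDUA, a lysosomal enzyme gene whose span overlaps SLC26A1, and CPLX1, a complexin gene. IDUA went from 3.31 ± 0.3 to 5.39 ± 0.318 CPM (SD, n = 2 each, log2 fold change 0.70, adjusted p = 0.0411). CPLX1 held only 6 and 4 fragments in control libraries and 23 and 32 in knockdown libraries (adjusted p = 0.0127). The call of IDUA was lost when control library 2 (adjusted p = 0.0803) or knockdown library 2 (adjusted p = 0.192) was left out, with library-size scaling (adjusted p = 0.0515), with a filter of 1 CPM (adjusted p = 0.0518) and with the GC content and length terms (adjusted p = 0.0904). In the broader list 5 genes were higher and 4 lower at an unadjusted p below 0.05 (9.46% and 13.1% of all tested genes). DESeq2 called 1 higher and limma-voom 2, and both called 0 lower.

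**Figure D4:**
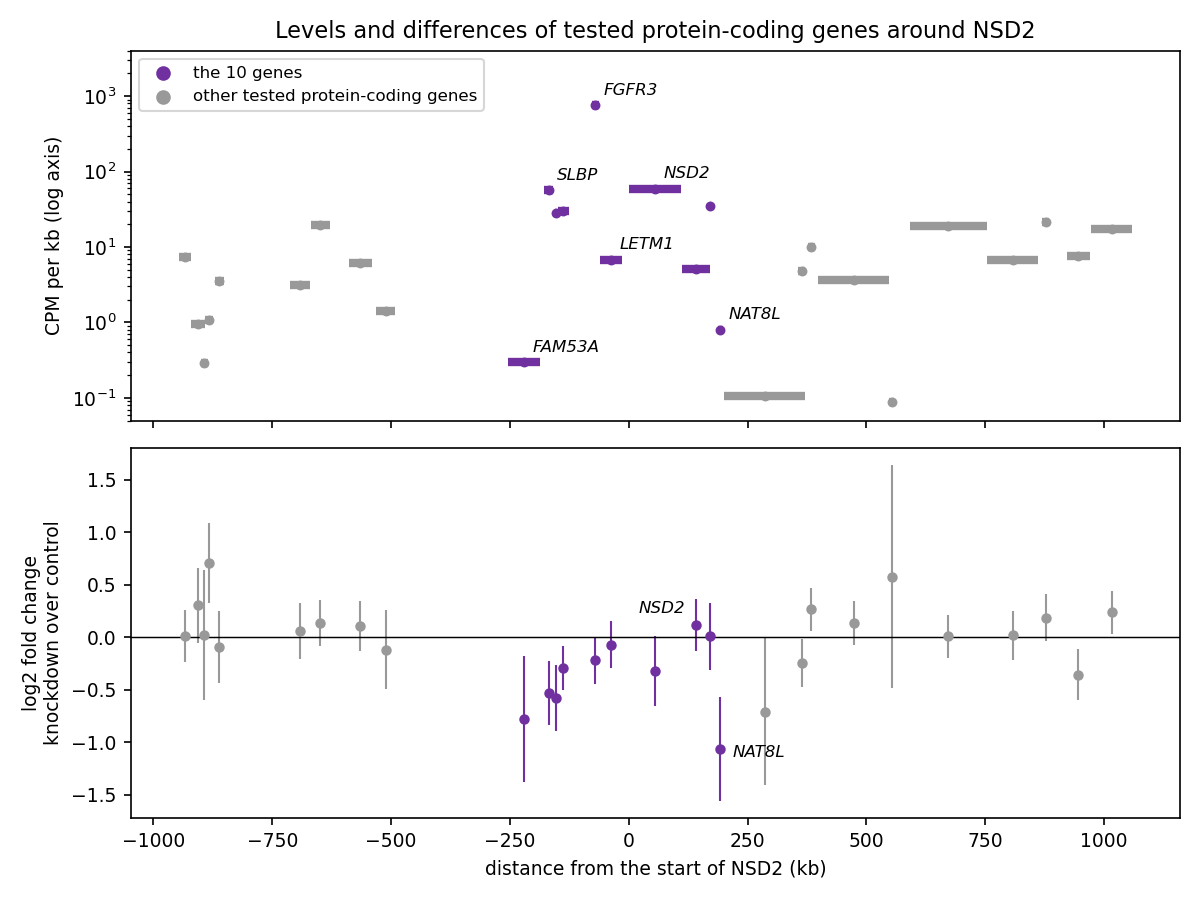
Level in CPM per kb on a log axis (top) and log2 fold change with its 95% interval (bottom) of the 29 tested protein-coding genes within 1000 kb of the start of NSD2, by distance from that start. The 10 genes are purple, and FGFR3 at 761 CPM per kb exceeds every gene in the window.

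The pattern over the 4 libraries was compared by the root mean square difference of log2 CPM centred on each gene's mean, as a description over 4 libraries. The closest pair among the 10 was SLBP and TMEM129 at 0.0442, followed by TACC3 and FGFR3 at 0.0561. Of 9903 other tested protein-coding genes of at least 5 CPM, those closest to NSD2 were TRIM46 at 0.0155, MFSD2A at 0.0201 and CCDC110 at 0.0280. Those closest to FGFR3 were STT3B at 0.00559, RBPJ at 0.00599 and ZNF136 at 0.00832.

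None of the 10 genes passed an adjusted p of 0.05 in the authors' deposited table. Few genes passed there: 278 of the 17172 tested genes were lower and 68 higher. The log2 fold changes in the authors' deposited table were close to those above: -0.30 for NSD2, -0.20 for FGFR3, -0.55 for TMEM129 and -1.02 for NAT8L. The adjusted p-values in the authors' deposited table were 0.933 for NSD2, 0.199 for TMEM129 and 0.151 for NAT8L. The base mean, a mean of normalized counts that the authors' deposited table gives for each gene, stood apart from these 4 libraries. For LETM1 the base mean in the authors' deposited table was 31454, against a mean normalized count of 2793 here, a ratio of 11.3. For NSD2 it was 63238, a ratio of 1.08, and for FGFR3 122857, a ratio of 0.666. Over the 17172 tested genes the ratio had a median of 0.949, and 74 genes were above LETM1, 0 of them among the 9196 genes with at least 500 normalized counts. The base mean is thus not a mean over these 4 libraries alone. Which libraries entered it is not given in the sources used here, and the table's header calls its contrast M2 over LUC, whereas its other count columns are named shScr. Which control lies behind the fold changes in the authors' deposited table is not given in the sources used here.

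**Figure D5:**
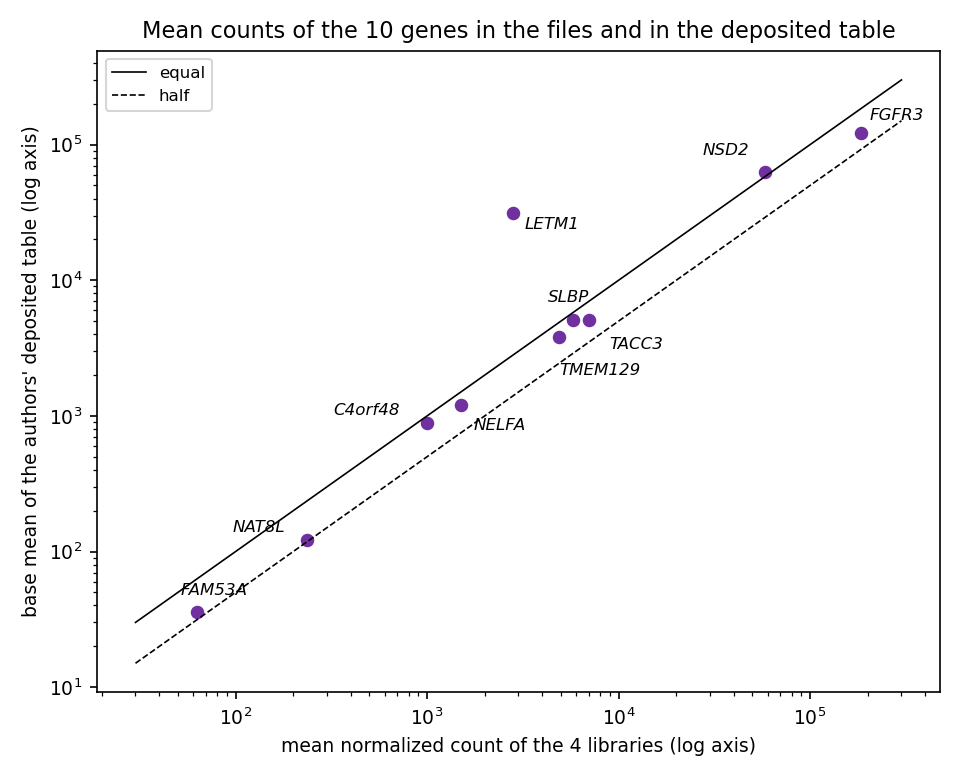
Base mean of each of the 10 genes in the authors' deposited table against its mean normalized count over the 4 libraries, both on log axes, with lines at equality and at a ratio of 0.5. LETM1 stands apart at a ratio of 11.3.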

How the data were processed

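RNA sequencing counts were used from 4 libraries of KMS11, 2 per group. Per the file headers, the deposited counts are raw fragment counts per Ensembl gene from featureCounts, unstranded, from alignments whose names mark removal of duplicates. Per the submitters' processing notes, Trim Galore 0.3.7, STAR 2.5.3, Picard, Subread 1.4.6, DESeq2 and GRCh37 were used. The authors' deposited DESeq2 table holds, per gene, a base mean, a Wald statistic and a standard error (scores), log2 fold changes, raw and adjusted p-values, and other values such as exonic length and coordinates. Its 2 knockdown count columns equal the library files in 62069 genes each, 2 per-sample columns, named shScr, could not be matched to the control titles, which name no hairpin, and were not used, and 1 blank line per file was left out.

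Counts were tested with edgeR 4.0.16 in R 4.3.3 (quasi-likelihood F test, TMM, default filter, group as the only term) and adjusted by Benjamini and Hochberg over 17172 genes, with a threshold of 0.05. The coefficient of biological variation was 9.81%, with 2 residual degrees of freedom. The procedure was run on simulated counts with planted changes and no difference between library numbers. That run does not show whether changes as small as those of NSD2 or FGFR3 would be detected. Gene types came from GENCODE 29, matched by identifier, and promoter windows from RefSeq. The genes, the 12 partner lists and the 6 marker lists were chosen with earlier results of these data known. Named were the 10 genes, fixed relatives, the title genes, up to 3 genes per list and direction past the threshold, and the 3 nearest patterns to NSD2 and FGFR3.

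Alternatives were scaling by RLE, by upper quartile or by library size alone, testing unfiltered genes, a filter of 1 CPM in 2 libraries, DESeq2 1.42.0, limma-voom (limma 3.58.1), robust empirical Bayes, a replicate block and leaving out each library, where a lone library was assumed to vary like the other group. GC content and length terms (splines of 5 degrees of freedom, 96.3% of tested genes with a GC value) were added after seeing the data, alone and with the block. Figures were drawn with matplotlib 3.10.9.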

Additional observations from a re-analysis of the deposited data

How the results depend on the processing

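Of 882 values under alternative settings, 729 stayed as reported, which for a log2 fold change means the same direction and side of the threshold and for a count of calls a value within 1.5 times. Of the rest, 75 were counts of calls that moved further. Leaving out 1 library gave ranges of log2 fold change of -0.99 to -0.53 for FAM53A, -0.72 to -0.32 for SLBP, -0.74 to -0.39 for TMEM129, -0.35 to -0.23 for TACC3, -0.16 to 0.018 for LETM1, -0.50 to -0.12 for NSD2, -0.0025 to 0.24 for NELFA, -0.19 to 0.24 for C4orf48 and -1.40 to -0.78 for NAT8L. For relatives and title genes it gave -0.26 to 0.072 for NSD1, -0.26 to 0.061 for NSD3, -0.17 to 0.18 for FGFR1, -0.046 to 0.18 for NELFE and -0.054 to 0.064 for SMARCA2. The 10 genes then had 1 to 6 lower, and all tested genes 173 to 682 higher and 649 to 1342 lower. The lower calls were 3.63% to 7.52% of all tested genes. The 6 came from the fit without control library 1, where that share was 7.52%. With the genes tested in the fit of all 4 libraries in brackets, the receptor list (18) had 0 to 2 higher and 0 to 1 lower. The feedback list (17) had 0 to 2 higher and 2 to 5 lower, and the lysine 36 list (19) 0 to 2 lower. The title genes (3) had 1 to 2 lower, the spindle list (10) 1 to 2 lower and the N-acetylaspartate list (5) 0 to 2 lower. The dislocation list (12) had 0 to 1 lower, and the 4p16.3 list (29) 1 to 3 higher and 0 to 2 lower.

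TMEM129 lost its call with library-size scaling (-0.60), a filter of 1 CPM (-0.59) and robust empirical Bayes (-0.58), each leaving 1 of the 10 genes lower. SLBP passed with DESeq2 (-0.53), which called 0 N-acetylaspartate genes lower, 1 gene of the 4p16.3 list higher and 2 title genes lower. With a filter of 1 CPM, which tests fewer genes, 0 N-acetylaspartate genes were lower and 0 genes of the 4p16.3 list higher, against 1 with library-size scaling. With no filter NSD2 (-0.32), SLBP (-0.53) and FAM53A (-0.78) passed, 5 of the 10 genes were lower, and 658 genes were higher and 1490 lower, among them 1 feedback gene higher and, lower, 2 of the 4p16.3 list and 2 title genes. The sign of C4orf48 turned with a filter of 1 CPM (-0.0020), library-size scaling (-0.010) and upper-quartile scaling (-0.0037), that of SMARCA2 under the same settings (-0.0058, -0.014 and -0.0084), and that of FGFR1 with library-size scaling (-0.0036) and limma-voom (-0.0024). With the GC content and length terms C4orf48 (-0.35), LETM1 (0.027), NSD1 (0.093), NSD3 (0.028) and TACC1 (0.017) changed sign, and 1 gene of the receptor list was higher. The cause was not tested for any of these.

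Libraries with equal numbers are not said to be pairs, and the correlation of their deviations from the group means was 0.236. With the replicate block NSD2 (-0.32), SLBP (-0.52), FAM53A (-0.78) and TACC3 (-0.29) passed, and 6 of the 10 genes were lower, against 1327 genes higher and 1992 lower (11.6%) over all tested genes. Under the block 1327 of 17172 tested genes were higher, among them 2 of 12 dislocation genes and 1 of 2 FAM53 relatives. Also higher were 1 of 17 feedback genes, 1 of 19 lysine 36 genes and 4 of 29 genes of the 4p16.3 list. Lower, against 11.6% of all tested genes, were 6 of 17 feedback, 1 of 18 receptor and 2 of 5 N-acetylaspartate genes. Also lower were 2 of 29 4p16.3 list genes, 1 of 11 pausing factors, 2 of 10 spindle genes and 2 of 3 title genes. With the block and the GC content and length terms 7 of the 10 genes were lower, against 11.1% of all tested genes: C4orf48 (-0.35), FAM53A (-0.87), FGFR3 (-0.26), SLBP (-0.53) and TACC3 (-0.27) passed besides TMEM129 and NAT8L, while NSD2 did not pass (-0.076, adjusted p = 0.559), LETM1 was at 0.027, NSD1 at 0.092, NSD3 at 0.022 and TACC1 at 0.017. That fit called 2151 genes higher and 1899 lower, of 17172 tested. Higher in it were 4 of 12 dislocation genes, 1 of 2 FAM53 relatives, 2 of 17 feedback genes and 4 of 18 receptor genes. The same was so for 2 of 19 lysine 36 genes and 1 of 13 histone processing genes. A further 10 of 29 genes of the 4p16.3 list and 3 of 11 pausing factors were higher. Lower in it were 6 of 17 feedback genes, 1 of 10 mitochondrial genes, 2 of 5 N-acetylaspartate genes and 1 of 11 pausing factors. Also lower in it were 1 of 29 genes of the 4p16.3 list, 2 of 10 spindle genes and 2 of 3 title genes. Among the 10 genes FAM53A had the lowest counts, 40 to 87 fragments per library, and the largest standard error, 0.268.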

Other observations

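Several of the 10 genes differed between the library numbers within each group. The log2 ratio of library 2 to library 1 was at least 0.2 in both groups for NSD2 (0.39 in control and 0.33 in knockdown libraries), TMEM129 (0.37 and 0.30), SLBP (0.41 and 0.21) and FAM53A (0.48 and 0.29), 4 of the 10 genes against 9.27% of all tested genes. NAT8L went the other way in both groups (-0.26 and -0.64), as did 7% of all tested genes. FGFR3 differed by 0.01 in control and -0.01 in knockdown libraries. These genes were singled out after their values were seen, and what the numbers stand for is not stated in the labels.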
